A study of Gallus gallus with 16 samples.

Results

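The pituitary gland of chicken embryos at embryonic day 17 (E17) was compared with the gland at embryonic day 14 (E14). The comparison used 8 of the 16 two-colour cDNA arrays of a series that also sampled E10 and E12, each age with 4 biological replicates. Members were the 4 arrays labelled E17 and the 4 labelled E14, and of the 7200 rows of the table the 7107 with values on at least 3 of the 4 arrays at each of both ages were compared. Each E14 sample was a pool of glands from 4 embryos and each E17 sample a pool from 2 embryos. The glands came from eggs incubated under one protocol and were frozen whole. E10 and E12 samples, used here for the shared error and for an earlier interval, were pools from 16 and 8 embryos. Strain, sex and treatment are not given in the labels, and the glands were not sorted. From each pool 500 ng of RNA was amplified with an oligo(dT) primer carrying a T7 promoter. Amplified sample RNA was labelled with Cy3 and hybridised against a common reference in Cy5, a mixture of 2 µg from every one of the 16 samples.

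The anterior pituitary holds several endocrine cell types, each named for its hormone: corticotrophs make adrenocorticotropin, thyrotrophs thyrotropin, gonadotrophs the gonadotropins, somatotrophs growth hormone and lactotrophs prolactin. In birds these types do not appear together, and somatotrophs and then lactotrophs become abundant late in incubation, after corticotrophs and thyrotrophs. The series title names thyrotrophs, somatotrophs and lactotrophs, and E14 to E17 is the last interval it samples before hatching.

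Each value is a log ratio of 1 sample over the reference pool, read as log2, on arrays that the authors had centred and scaled. Because of the centring, a value of 0 lies close to an array's mean log ratio of sample to pool, and is called the level of the pool here. To the pool, E14 and E17 samples each gave the same share. A difference between ages is a difference in scaled log2 ratios and not a fold change. Between 7023 and 7183 rows held a value on the E14 arrays and between 7171 and 7194 on the E17 arrays. Most of the first 45 rows were blank on E14 replicates 3 and 4 (42 and 43). On the other 6 arrays of E14 and E17, 0 or 1 were blank. On E12 replicates 3 and 4, 45 and 39 were blank. Of the 93 rows left out, 87 had too few values at E14 alone, 6 at both ages and 0 at E17 alone, and 40 lay among those first 45. Across rows, pairs of E17 arrays correlated at 0.399 to 0.576 (median 0.495, 6 pairs) and pairs of E14 arrays at -0.0053 to 0.339 (median 0.173). An E14 with an E17 array correlated at -0.0878 to 0.359 (median 0.179, 16 pairs). By these medians, E14 arrays were no more alike among themselves than with E17 arrays. Such correlations also depend on how far the row means of an age stand from 0. Their quartiles over all rows tested were -0.089 and 0.089 at E14, and -0.116 and 0.114 at E17. How much this lowered the E14 correlations was not tested. All these pairs share the reference pool, and rows are not independent replicates. The platform annotation used here pairs 54 rows with a gene, all of them STUB1, and leaves 7146 unnamed. The tissue could therefore not be checked against hormone or other cell type markers, no pathway could be counted, and rows are given by their number in the table.

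Few rows passed a test for a difference between the 2 ages, and the largest differences were rises. In a limma fit of all 16 arrays with a mean per age, 113 of 7107 rows passed a Benjamini-Hochberg adjusted p of 0.05 (1.59%). Of these, 62 were higher at E17 (0.872%) and 51 were lower (0.718%). Before adjustment, 819 rows (11.5%) had a limma p under 0.05, so a row that did not pass is not shown to be unchanged. The rises had a median of 0.85 (quartiles 0.64 and 1.21) and reached 3.48, whereas the falls had a median of -0.50 (quartiles -0.57 and -0.43) and reached -1.25. Over all rows tested the median difference was -0.0042 (quartiles -0.12 and 0.10). On this scale 7 rises were of at least 2 and 24 of at least 1, against 0 and 2 falls of these sizes. In whole glands, fewer cells of a type and less RNA per cell cannot be told apart, and neither can age and the number of embryos in a pool.

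How many rows passed depended on which arrays were in the fit. A fit of the 8 arrays of E14 and E17 alone called 42 rows (0.591%), 31 higher (0.436%) and 11 lower (0.155%). All 42 were among the 113. The median SE of a difference was 0.120 in the 16-array fit and 0.123 in the 8-array fit. In scaled values the E14 arrays spread more than the E17 arrays, with a median SD over rows of 0.186 against 0.136 (n = 4 each). In 67.2% of all rows the SD was larger at E14. These SDs, like the correlations above, are of values scaled to nearly the same SD over rows on every array. Whether that scaling contributed was not tested. Under it, a larger SD between replicates goes with a lower correlation between them, so the SDs and correlations are not separate observations. With weights estimated per age, which let each age have its own spread, 84 rows passed, 53 higher and 31 lower. The rises that passed in both the 16-array and the 8-array fit had a median of 1.17, and the falls a median of -0.61.

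**Figure D1:**
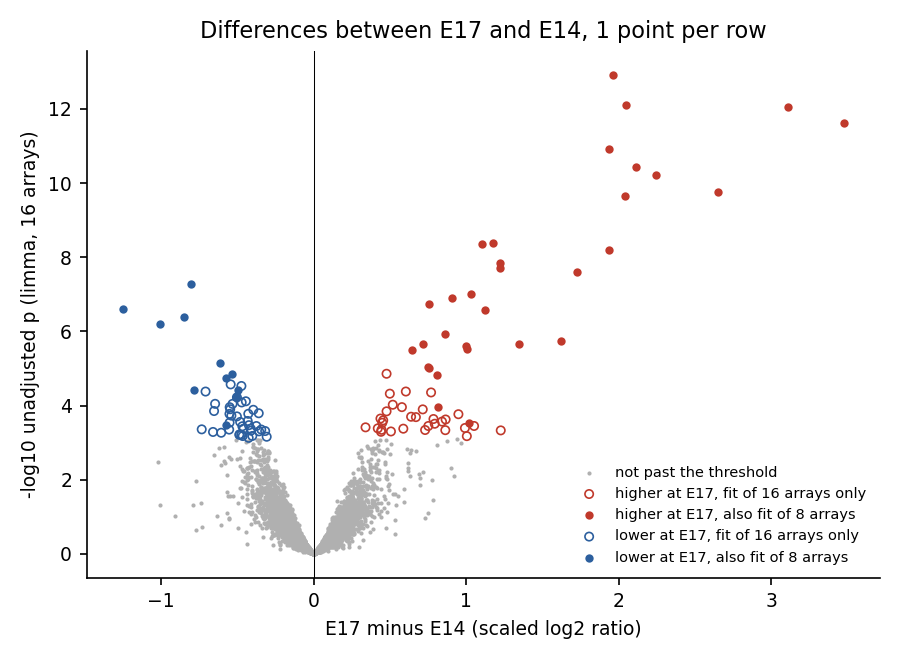
Each point is 1 of 7107 rows, placed by the E17 minus E14 difference in scaled log2 ratios and by -log10 of the unadjusted limma p from all 16 arrays. Filled points passed in both fits (31 higher, 11 lower) and open points in the 16-array fit alone. The rises extend to 3.48 and the falls to -1.25.

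Row 1621 showed the largest rise. On E14 replicates 1 to 4 its value was -1.58, -2.34, -1.20 and -2.34, and on E17 replicates 1 to 4 it was 1.87, 1.66, 1.75 and 1.17. The ages did not overlap, and the lowest E17 array lay 2.37 above the highest E14 array. The difference was 3.48 (SE 0.20, 95% confidence interval 3.05 to 3.90, limma adjusted p = 4.25e-09). This SE and interval rest on a residual variance shared by all ages, E10 and E12 included. Fitted on the E14 and E17 arrays alone, the row had an SE of 0.25 and a limma adjusted p of 1.26e-05. The mean went from -1.86 ± 0.57 at E14 to 1.61 ± 0.31 at E17 (SD, n = 4). The row had also been far below the pool earlier, at -1.72 ± 0.08 at E10 and -2.22 ± 0.10 at E12 (SD, n = 4), so that E17 was the one age at which it stood above the pool.

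Row 539 had almost the same course. Its E14 arrays were at -1.50, -1.85, -1.36 and -2.26 and its E17 arrays at 1.44, 1.47, 1.51 and 1.04. As in row 1621, replicates 2 and 4 were the lowest at E14 and replicate 4 was the lowest at E17, and the gap between the ages was 2.40. The difference was 3.11 (SE 0.17, 95% confidence interval 2.75 to 3.47, limma adjusted p = 2.04e-09). With the E14 and E17 arrays alone in the fit, row 539 had an SE of 0.18 and a limma adjusted p of 3.35e-06. Means at E10 and E12 were -1.70 ± 0.23 and -2.15 ± 0.18 (SD, n = 4).

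Row 4970 showed the largest fall. It stood at -0.17, 0.36, -0.21 and 0.17 on the E14 arrays and at -1.14, -1.31, -1.08 and -1.33 on the E17 arrays. The lowest E14 array lay 0.87 above the highest E17 array. The difference was -1.25 (SE 0.15, 95% confidence interval -1.58 to -0.93, limma adjusted p = 8.59e-05). When E14 and E17 arrays alone were fitted, row 4970 had an SE of 0.14 and a limma adjusted p of 0.00045. Its mean was 0.62 ± 0.13 at E10, 0.22 ± 0.35 at E12 and 0.04 ± 0.27 at E14, before -1.21 ± 0.12 at E17 (SD, n = 4).

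Row 3725 had the next largest fall among the rows that passed. It read -0.17, 0.47, 0.50 and 0.50 on E14 replicates 1 to 4 and -0.72, -0.79, -0.75 and -0.45 on the E17 arrays. E14 replicate 1 lay well below the other 3 E14 arrays, yet still 0.29 above the highest E17 array. The difference was -1.01 (SE 0.13, 95% confidence interval -1.29 to -0.73, limma adjusted p = 0.000191). From a fit of E14 and E17 arrays alone, row 3725 had an SE of 0.16 and a limma adjusted p of 0.00801. Unlike row 4970, it was close to the pool at E10 (-0.02 ± 0.12) and E12 (-0.06 ± 0.11) and highest at E14 (0.33 ± 0.33; SD, n = 4). Another 2 rows had larger differences without passing. One was at -1.02 (limma adjusted p = 0.115, SD 0.71 at E14 and 0.14 at E17) and the other at -1.01 (limma adjusted p = 0.429, SD 0.47 and 1.31).

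**Figure D2:**
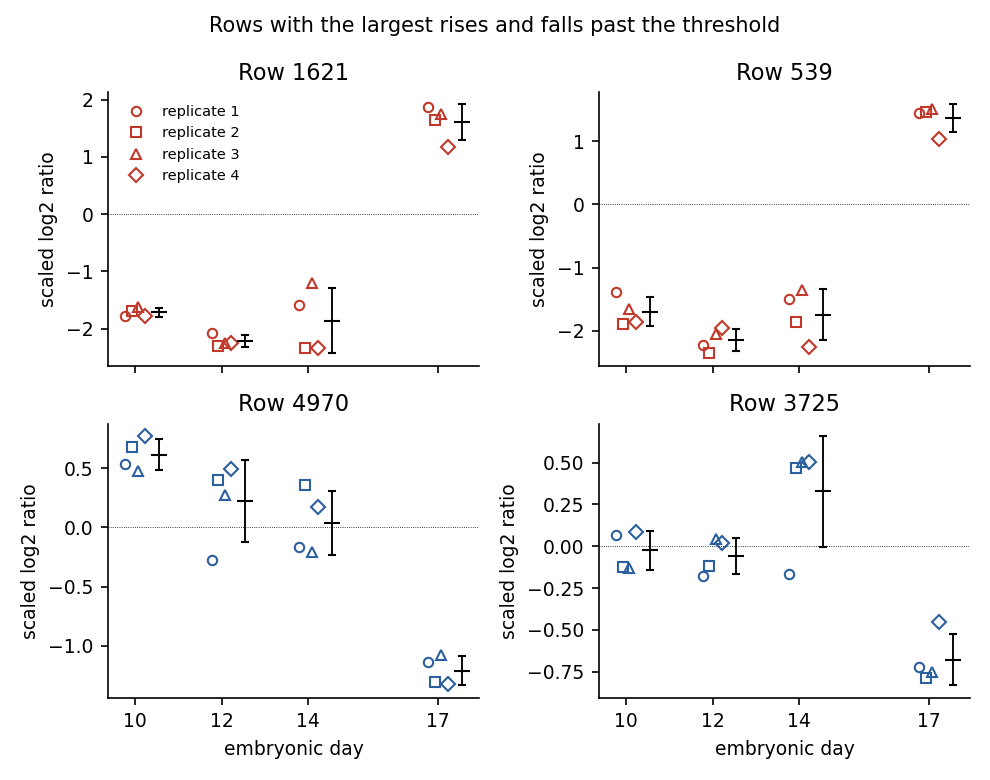
Open symbols are the values of single arrays (scaled log2 ratio against embryonic day, 1 symbol per replicate number) and black bars are the mean ± SD of 4 arrays. Rows 1621 and 539 stayed below the pool through E14 and were above it on every E17 array. Row 4970 was below every E14 value on every E17 array, and row 3725 had 1 low array at E14.

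In most of the rows that passed, the arrays of the 2 ages did not overlap. Every E17 array lay above every E14 array in 191 of the 7107 rows (2.69%) and below in 254 (3.57%), together 445 (6.26%). Among the rows that passed, 61 of 62 rises and 50 of 51 falls were of this kind, a share that the test itself favours. Lower without overlap was thus more frequent than higher over all rows, while among the rows that passed the rises were more numerous (62 against 51). That order turned without moderation of the variances, with 48 higher and 56 lower, and without E14 replicate 1, with 66 and 71. All 24 rows with E17 higher by at least 1 passed, 21 of them also in the 8-array fit. Of 86 rows with E17 higher by at least 0.5, 53 passed, and of 54 rows with E17 lower by at least 0.5, 26 passed. Those that did not pass had a median SD at E14 of 0.49 (E17 higher) and 0.46 (E17 lower), against 0.25 and 0.18 in those that passed. At E17 the corresponding medians were 0.20 and 0.23, against 0.19 and 0.14. These SDs enter the test, so larger ones in rows that did not pass follow from how rows were chosen.

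Most of the rows that rose were below the pool at all 3 earlier ages. Their row means had a median of -0.53 at E10, -0.62 at E12 and -0.26 at E14, and then of 0.69 at E17. All 62 had means below the pool at E10 and at E12, 52 at E14 and 0 at E17. The E17 samples are themselves part of the pool, so a row that is high at E17 reads lower at the other ages by construction. E17 had the highest mean of the 4 ages in 62 of 62 rows, and the lowest was at E12 in 34, at E10 in 16 and at E14 in 12. Among all 7107 rows, E17 was highest in 1981, and the lowest mean was at E12 in 1222, at E10 in 1860 and at E14 in 1588. The rows were chosen for E17 above E14, which favours these counts. The 24 rows that rose by at least 1 started lower, with medians of -0.87, -1.01 and -0.71 at E10, E12 and E14, and reached 1.03 at E17. The other 38 went from -0.36, -0.38 and -0.10 to 0.49.

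The rows that fell had been near or slightly above the pool. Their row means had a median of 0.17 at E10, 0.12 at E12 and 0.15 at E14, and then of -0.37 at E17. At E17 the mean was below the pool in 49 of 51 rows, and E17 was the lowest of the 4 ages in 50 of 51. The highest age was E10 in 24 rows, E14 in 23 and E12 in 4. Over all 7107 rows tested, the E17 mean was below the pool in 3390 and E17 was lowest in 2437. The highest age over all rows was E10 in 2349, E14 in 1292 and E12 in 1485. The rows were chosen for E17 below E14, which favours these counts. A row that is low at E17 also reads higher at the other ages by construction, since E17 samples are part of the pool.

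**Figure D3:**
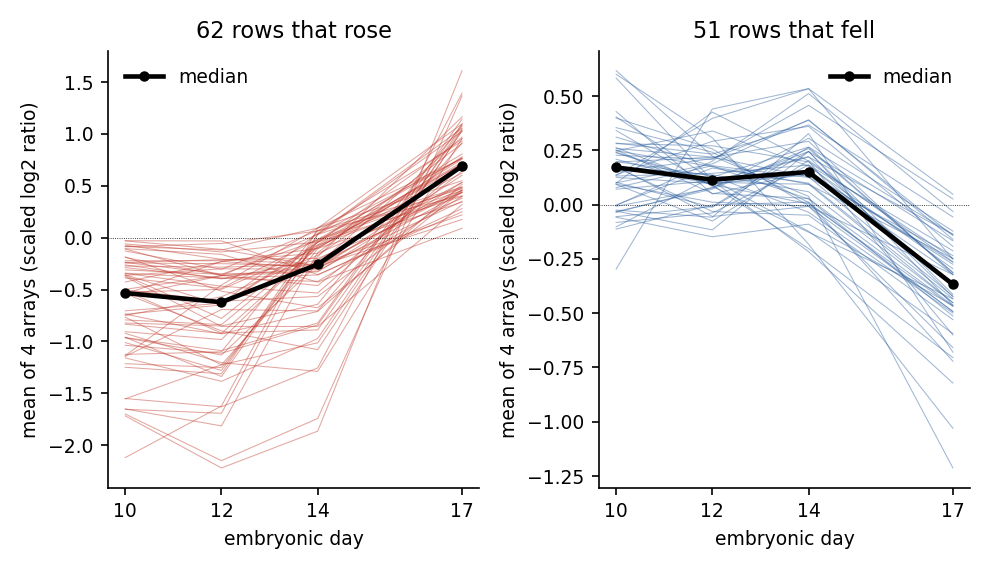
Thin lines join the means of 4 arrays (scaled log2 ratio) of single rows across embryonic days 10, 12, 14 and 17, and the thick line is the median over rows. The median of the 62 rows that rose stayed between -0.62 and -0.26 through E14 and was 0.69 at E17. That of the 51 rows that fell stayed between 0.12 and 0.17 and was -0.37 at E17. The 2 panels have different vertical scales.

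The E10 and E12 arrays do not enter the E17 minus E14 difference, although in the 16-array fit they helped to set the error by which rows passed. They give the values of these rows over the earlier interval. From E10 to E12, 46 of the 62 rows that rose later were lower at E12 (74.2%), against 51.7% of all rows tested. The median E12 minus E10 difference was -0.08 in these rows and -0.0061 in all rows. Among the 24 that rose by at least 1 it was -0.16, with 19 of 24 lower at E12. Averaged over the 62 rows, the E10 arrays stood at -0.63, -0.74, -0.63 and -0.69 and the E12 arrays at -0.73, -0.76, -0.82 and -0.65, so the ages overlapped. Of the 51 rows that fell later, 31 were lower at E12 (60.8%), with a median difference of -0.04. In the 11 falls that passed in both fits that median was 0.02. Taken per E12 array, these medians had SDs of 0.07 (51 falls) and 0.10 (11 falls). Both SDs exceed the size of the median, and the same SD for the 62 rises was 0.025. These SDs leave out the spread of the E10 arrays and are not errors of the medians. The signs of these medians were not tested.

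Few rows passed in both intervals. Between E10 and E12, 28 of 7107 rows passed (0.394%), 21 higher (0.295%) and 7 lower (0.0985%). A single row rose over both intervals (1 of the 62 later rises, 1.61%, and 1 of the 21 earlier ones, 4.76%), and 1 row rose from E10 to E12 and fell from E14 to E17 (1.96% of the 51 falls). The 7 earlier falls shared 0 rows with either list. Lists this short out of 7107 rows would share few or 0 rows by chance too. These overlaps therefore do not show whether the 2 intervals change different rows.

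The change from E14 to E17 was then tested against the change from E10 to E12, row by row, in the 16-array fit. No array enters both changes. They differed in 40 rows (0.563%), with the last change higher in 30 (0.422%) and lower in 10 (0.141%). In 29 of the 30 rows the E12 mean was below the E10 mean and the E17 mean above the E14 mean, and the median differences over the 30 were -0.24 and 1.12. In 9 of the 10 both had the opposite sign, and the medians over the 10 were 0.22 and -0.54. The rows were chosen for a difference between the 2 changes, which favours opposite signs. Of the 30, 26 had also passed as higher at E17 than at E14, and 9 of the 10 as lower. From E10 to E12, 1 row of each group had passed. The test therefore largely repeats that of E17 against E14. For row 1621 the changes differed by 3.98 (SE 0.29, limma adjusted p = 1.35e-07) and for row 539 by 3.56 (SE 0.24, limma adjusted p = 9.87e-08). For row 3725 they differed by -0.97 (SE 0.19, limma adjusted p = 0.0191), and for row 4970 by -0.86 (SE 0.22, limma adjusted p = 0.11), which missed the threshold. These named rows were chosen for their large E17 minus E14 differences, which enter this test, so small p-values are favoured. The last interval covers 3 days and the first 2 days. The count of 40 rows became 26 without E10 replicate 1 and also without E10 replicate 3. Without E14 replicate 1 it became 61, 30 higher and 31 lower. The 10 lower rows became 4 to 6 without E10 replicates 1, 2 or 3, E12 replicates 2 or 4, or E17 replicates 3 or 4.

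The 8 arrays did not contribute alike to the rises. Averaged over the 62 rows that rose, the E14 arrays stood at -0.48, -0.26, -0.29 and -0.43 and the E17 arrays at 0.72, 0.77, 0.70 and 0.62. E14 replicate 1 was the lowest E14 array in 25 of the 62 rows and E17 replicate 4 the lowest E17 array in 31. E14 replicate 1 was also the highest E14 array in 15 of the 62. Over all 7107 rows tested, E14 replicate 1 was lowest in 1907, E14 replicate 4 in 1477 and E17 replicate 4 in 1655. In the 24 rows that rose by at least 1 this was clearer at E17, where replicate 4 averaged 0.73, against 0.97 to 1.05 on the others, and was the lowest in 19 of 24. At E14, replicate 4 was the lowest in 13 of these 24 rows, at -0.92, against -0.73 to -0.64 on the others. The falls were more even at E17, with averages over the 51 rows of -0.38, -0.36, -0.40 and -0.41, against 0.10, 0.23, 0.13 and 0.14 at E14. In both sets the average over rows did not overlap between the ages, as the choice of rows requires.

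**Figure D4:**
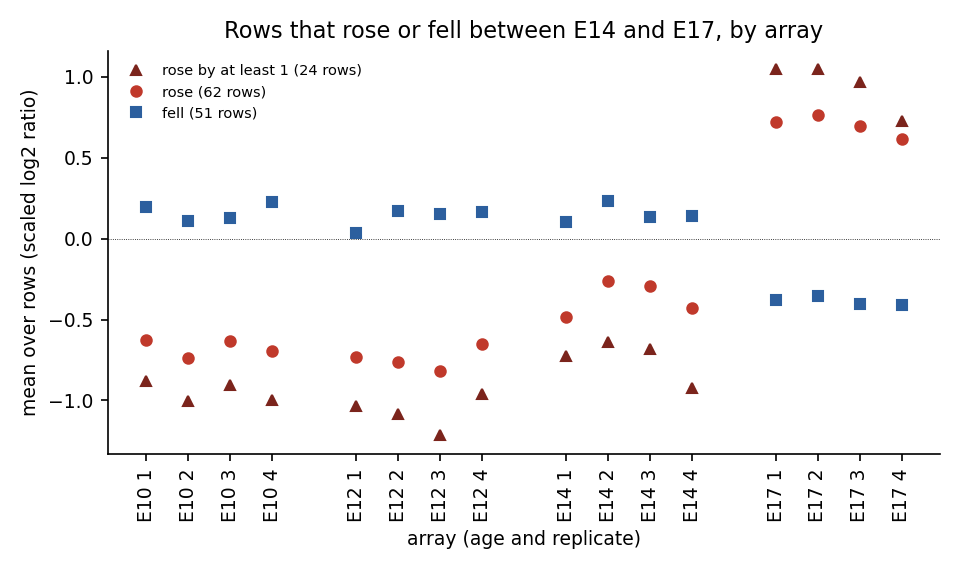
Each symbol is the mean of 1 array over the rows that rose (circles, 62 rows), those that rose by at least 1 (triangles, 24 rows) or those that fell (squares, 51 rows), in scaled log2 ratios. E17 replicate 4 is the lowest E17 array for the rises, at 0.62 and 0.73, and the E10, E12 and E14 arrays of the falls lie between 0.04 and 0.23.

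Single arrays moved the counts. Without E17 replicates 2, 3 or 4 in turn, 69, 72 and 57 rows passed, of which 38, 43 and 39 were higher and 31, 29 and 18 lower. Falls also dropped to 31 without E17 replicate 1 and to 28 without E14 replicate 2. Without E14 replicate 1 the total rose to 137, with 66 higher and 71 lower. The E14 arrays with blank first rows, set alone against E17, gave 55 higher and 30 lower, and the other E14 arrays gave 44 higher and 38 lower. With the blank-row arrays of E12 and E14 together as a term, 91 rows passed, 56 higher and 35 lower.

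A smaller set passed under most settings. Over 14 other settings and 8 fits that each left out 1 of the E14 or E17 arrays, 27 of the 62 rises and 5 of the 51 falls always passed. These rises had a median of 1.23 and none was under 0.64, and the falls were of 0.61 or more. When 1 array at a time was also left out of the 8-array fit, 25 of these 27 rises and 4 of these 5 falls passed in all 8 of those fits too. Rows 1621, 539, 4970 and 3725 were among the last. In the 22 fits counted first, all 113 rows kept the sign of their difference wherever a fit gave a value. Row 1621 ranged from 3.32 to 3.70, row 539 from 2.94 to 3.24, row 4970 from -1.71 to -1.14 and row 3725 from -1.18 to -0.83.

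**Figure D5:**
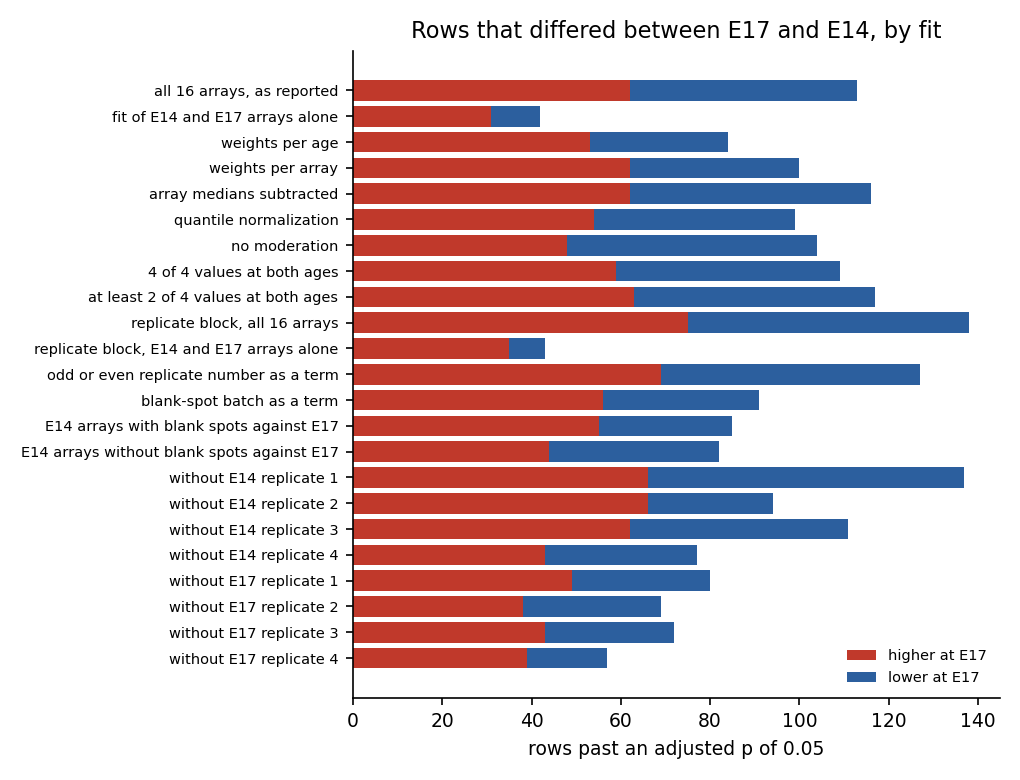
Bars give the number of rows past a Benjamini-Hochberg adjusted p of 0.05 in each fit, split into rows higher (red) and lower (blue) at E17. The total runs from 42 in the fit of E14 and E17 arrays alone to 138 with the replicate number as a block.

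STUB1, a ubiquitin ligase that acts with heat shock proteins, is the one gene that the annotation names. Of the 54 rows so annotated, 54 were tested and 0 passed by limma in the 16-array fit. Among them 24 were higher and 30 lower at E17. Their differences ran from -0.37 to 0.37 with a median of -0.01, and the median correlation between pairs of these rows over the 16 arrays was -0.0061. These rows did not move together, so it is doubtful that the annotation pairs all of them with the right gene. No value is given for the gene, and whether it changed is not shown.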

How the data were processed

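The values are the authors' deposited log ratios, 1 per row and array, used as log2 of sample over pool. How images were read, background-corrected, normalized and filtered is not given in the sources used here. Array means lay between -0.0065 and 0.0025 and every array's SD between 0.2612 and 0.2614, so arrays had been centred and scaled before deposit.

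Per the labels, Cy3 carried the sample and Cy5 the pool, but which was divided by which, and the log base, are not stated. Every sample entered the pool in the same amount, so the mean linear ratio over ages should vary little. Over the 57 rows whose age means varied most (variance above 0.5), the SD of its log2 was 0.101 as read, 0.331 with the sign turned, 0.162 with natural logarithms and 0.753 with base 10. The lowest correlation of any array pair was -0.37, between an E10 and an E17 array. Ages can oppose each other around their own pool. Turning the sign of every array leaves that correlation unchanged, so it does not bear on the direction. The direction was kept because the SD was smaller as read than with the sign turned. Base 2 remains an assumption, since the scaling of the arrays also changes these SDs.

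Tests used R 4.3.3 and limma 3.58.1 (linear models with empirical Bayes variance moderation) and were two-sided, with a mean per age, 1 residual variance per row over 16 arrays, and Benjamini-Hochberg adjustment over 7107 rows. Missing values were left missing, and 169 tested rows lacked at least 1 value at E14 or E17. The fitting was tested on simulated data. The precision is limited by 4 arrays per age (median SE of a difference 0.12). Alternatives were a fit of 8 arrays, weights, centring, quantile normalization, no moderation, row filters, replicate and batch terms, and leaving out arrays. Replicate numbers at E14 and E17 were not taken as pairs, as the labels state no pairing. Deviations of same-numbered arrays from their age means correlated at 0.197, 0.298, 0.25 and 0.0269, which does not show that they are unpaired. A replicate block lowered the median SE from 0.120 to 0.109 in the 16-array fit and from 0.123 to 0.104 in the 8-array fit. Named rows were the 2 largest rises and 2 largest falls past the threshold, since the rule for gene names and the gene lists could not be applied. The comparison, row rule and settings were chosen with earlier results of these data known.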

Additional observations from a re-analysis of the deposited data

Results flagged for a closer look

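In 36 groups of 4 arrays (the 4 named rows and 5 averages over rows at each age), 4 held an array set apart from the remaining 3; by chance about 1.8 would (1 in 20). At E17, replicate 4 of row 539 read 1.04 while the remaining arrays read 1.44 to 1.51. At E14, replicate 1 of row 3725 read -0.166 while the remaining arrays read 0.469 to 0.505. Averaged over the 51 rows that fell between E14 and E17, E12 replicate 1 stood at 0.036, against 0.153 to 0.172 on the other E12 arrays. Averaged over the 31 rises that passed in both fits, E14 replicate 4 stood at -0.771, against -0.61 to -0.591 on the other E14 arrays. The averages share rows and arrays with each other and with the named rows, so these are not independent. What sets these arrays apart was not tested.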

How the results depend on the processing

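Of 113 rows (62 higher, 51 lower at E17), the fit of E14 and E17 arrays alone called 42 (31 and 11), and adding a replicate block to that fit gave 43 (35 and 8). Weights per age gave 31 lower and the E14 arrays with blank first rows against E17 gave 30 lower. Leaving out 1 array gave 57 to 137 rows, 38 to 66 higher and 18 to 71 lower. In the fit of 8 arrays, leaving out 1 gave 32 to 54, 26 to 36 higher and 5 to 18 lower, an alternative chosen after seeing the data. The 40 rows whose last and first changes differed became 26 to 61 with an array left out. The 10 of them with the lower last change became 4 to 31, and were 17 with weights per array, 16 with the odd or even term and 3 with the blank-row term. In rows that passed in both fits, the E12 minus E10 median was -0.111 for rises and 0.0225 for falls, against -0.0402 for all 51 falls. Both medians of the falls were smaller than their SD over the E12 arrays (0.0956 and 0.0685), which leaves out the spread at E10. The change of sign was not tested. Other settings kept these counts within 1.5 times their values, though without moderation more rows were lower (56) than higher (48). The replicate block in the fit of 16 arrays gave 138 rows, 108 of them among the 113. Replicates 1, 2 and 3 of E14 correlated best with their own number at E17 and replicate 4 did not, a hint from the data and not from the design. The 8-array fits have fewer arrays to estimate variance and take it from these ages alone. Otherwise the cause was not tested. Signal over background was not analysed here, so dim and bright spots were treated alike.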
